A study of Mus musculus with 4 samples.

Results

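Granzyme-rich CD8 T cells were CD8 T cells of mouse B16F10 melanoma that held many transcripts of granzymes C, D, E and F. They numbered 129 of 1039 CD8 T cells, among 7175 barcodes that passed the filters of 10602 deposited. A barcode counted as a CD8 T cell with at least 2 UMIs (unique molecular identifiers, 1 for each captured transcript) of Cd3d, Cd3e and Cd3g together. It also needed at least 1 UMI of Cd8a or Cd8b1 and 0 of Cd4 and Foxp3. It counted as granzyme-rich at 10 or more UMIs of Gzmc, Gzmd, Gzme and Gzmf summed. The cells were therefore chosen by their own levels of these 4 genes, and those levels are described below without a test.

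The study asked how an antibody to PD-1, the drug pair doxorubicin and fasudil, or all 3 agents changed the cells of a tumour model that resists checkpoint blockade. Doxorubicin is an anthracycline that kills tumour cells in an immunogenic way, and fasudil inhibits ROCK, a kinase of the cytoskeleton. Each of 4 groups was 1 library of 5′ single-cell RNA sequencing from whole tumour with no sort: control (labelled without an agent), aPD-1 (the antibody alone), D+F (the drug pair) and D+F+P (all 3 agents). Where 3 values are given in a row below, they belong to aPD-1, D+F, D+F+P in that order. The strain and age of the mice, the doses, the times and the number of mice in a library are not given in the sources used here. Because each treatment was 1 library, intervals between libraries cover counting error only, and no test between treatments was made. The treated libraries held 57, 35 and 36 granzyme-rich cells, and the control library held 1.

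Granzymes are serine proteases that cytotoxic lymphocytes store in granules and pass into target cells through pores made by perforin. Granzyme B is the best studied and cleaves caspases and their substrates. Mice carry beside Gzmb a run of related genes, Gzmc to Gzmg and Gzmn, which humans lack, and their products are known from strongly or repeatedly stimulated T cells and from NK cells. The 7 genes lie on the minus strand of chromosome 14 (GRCm38) within 56117626 to 56262260, a stretch of 144.635 kb, in the order Gzme, Gzmd, Gzmg, Gzmn, Gzmf, Gzmc and Gzmb.

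Gzmb, Gzmc, Gzmd, Gzme, Gzmf and Gzmg had UMIs in granzyme-rich cells, and Gzmn had 0. Gzmg was seen in only 6 of 57, 10 of 35 and 0 of 36 of these cells. The bases just upstream of the transcription starts are shown for Gzmb, Gzmc, Gzmd, Gzme and Gzmf, and those of Gzmg and Gzmn are only described. They come from RefSeq on GRCm38.p6, 5′ to 3′ on the gene's strand, and capitals mark matches on either strand to the Runx core TGTGGT, the cAMP response element TGACGTCA or the AP-1 site TGANTCA.
Gzmb, chr14:56262335-56262584, minus strand: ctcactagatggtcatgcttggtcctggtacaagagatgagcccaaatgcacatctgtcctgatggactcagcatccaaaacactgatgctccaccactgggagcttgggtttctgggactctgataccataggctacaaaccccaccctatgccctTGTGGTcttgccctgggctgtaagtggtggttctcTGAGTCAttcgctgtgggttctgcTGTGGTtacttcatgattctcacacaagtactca
Gzmc, chr14:56234658-56234907, minus strand: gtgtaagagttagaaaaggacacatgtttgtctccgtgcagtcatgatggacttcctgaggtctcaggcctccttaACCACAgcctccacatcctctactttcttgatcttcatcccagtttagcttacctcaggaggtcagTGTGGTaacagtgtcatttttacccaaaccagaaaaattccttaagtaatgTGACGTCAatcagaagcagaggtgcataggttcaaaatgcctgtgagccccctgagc
Gzmd, chr14:56132609-56132843, minus strand: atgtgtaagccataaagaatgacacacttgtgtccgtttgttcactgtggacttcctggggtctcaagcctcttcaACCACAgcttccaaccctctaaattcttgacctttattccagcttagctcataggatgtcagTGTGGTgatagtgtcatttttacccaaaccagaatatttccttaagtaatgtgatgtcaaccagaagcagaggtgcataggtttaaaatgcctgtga
Gzme, chr14:56120626-56120875, minus strand: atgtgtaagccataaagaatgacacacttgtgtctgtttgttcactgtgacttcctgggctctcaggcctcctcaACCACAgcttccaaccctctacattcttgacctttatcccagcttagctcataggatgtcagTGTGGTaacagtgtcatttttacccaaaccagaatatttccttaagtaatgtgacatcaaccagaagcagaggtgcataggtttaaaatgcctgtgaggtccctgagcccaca
Gzmf, chr14:56211418-56211657, minus strand: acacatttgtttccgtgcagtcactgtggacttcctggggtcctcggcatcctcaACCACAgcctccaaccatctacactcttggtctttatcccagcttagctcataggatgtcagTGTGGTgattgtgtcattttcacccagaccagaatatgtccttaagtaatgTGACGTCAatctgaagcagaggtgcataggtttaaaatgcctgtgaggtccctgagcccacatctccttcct

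The Runx core TGTGGT was matched 2 times in each of the upstream windows of Gzmb, Gzmc, Gzmd, Gzme, Gzmf and Gzmg, and not in that of Gzmn. Among 32851 annotated promoters taken over 250 bases, 14.0% held at least 1 match and 1.27% at least 2. The cAMP response element TGACGTCA stood 57 bases before the start of Gzmc, 72 before that of Gzmf and 77 before that of Gzmg, against 1.55% of promoters with a match. At the same place Gzmd carried the substitution C4T and Gzme the substitution G5A, counted from 1 at the 5′ end of TGACGTCA. The AP-1 letters TGANTCA were found only before Gzmb of these 7 genes, 58 bases from its start, against 6.75% of promoters. The STAT letters TTCNNNGAA were in none of the 7 windows, against 7.02% of promoters. Upstream of Gzmd and Gzme 95.7% of aligned bases were identical, and the windows of Gzmc matched those of Gzmd, Gzme, Gzmf and Gzmg at 84.1% to 86.5%. The window of Gzmb matched the others at 57.1% to 65.5%. These are matches of letters, and no binding was measured.

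The rule fixed the T cell and CD8 markers in part, so their levels are given as a description. Each of the 128 granzyme-rich cells of the treated libraries had a Cd8a UMI. Cd8b1 was seen in 55 of 57, 35 of 35 and 36 of 36 cells. Cd4 and Foxp3 were at 0 by the choice of cells, and the B cell and neutrophil marker genes, which the rule did not use, were at 0. In the other CD8 T cells of these libraries those markers were near 0 too, at most 2.79 and 0.930 CPM. Markers of melanoma cells summed to 116, 332 and 58.0 CPM (the UMIs of a gene scaled to 1000000 UMIs in the class) in granzyme-rich cells and to 681, 743 and 248 CPM in the other CD8 T cells of the same libraries. Myeloid markers summed to 38.3, 42.7 and 12.5 CPM against 75.8, 61.4 and 46.2 CPM. The markers of both tumour and myeloid cells were thus lower in the granzyme-rich cells of each treated library.

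One barcode in the D+F library stood apart. The granzyme-rich cell with the most granzyme UMIs there (832) also held 52 of the 53 Tyrobp UMIs of the class, 48 of its 53 Gzma UMIs, 32 of Fcer1g and 3 each of the NK receptor genes Ncr1 and Klrb1c, with 27 Cd3 UMIs and none of Trac. Another D+F barcode held 92 melanoma marker UMIs. No doublet caller was run, and results that rest on these barcodes are named as such.

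Granzyme-rich cells made up 15.3% of CD8 T cells in aPD-1 (exact 95% interval 11.8% to 19.4%), 16.1% in D+F (11.5% to 21.7%) and 8.31% in D+F+P (5.89% to 11.3%). In the control library 1 of 17 CD8 T cells was granzyme-rich (5.88%, 0.149% to 28.7%), and its interval takes in those of the treated libraries. The D+F+P share had the lowest value of the 3 treated libraries, and its interval did not meet those of aPD-1 and D+F. The intervals of D+F+P and D+F did meet at a threshold of 5 UMIs (8.90% to 15.2% against 12.7% to 23.2%) and without barcodes high in melanoma and myeloid markers (6.21% to 11.9% against 11.7% to 22.3%). When every cell was reduced to 1000 UMIs and 2 granzyme UMIs were asked for, the shares were 14.5%, 14.7% and 6.005%. Over all barcodes that passed the filters the order differed, with 3.14% in aPD-1, 1.67% in D+F and 2.93% in D+F+P, because CD8 T cells were 20.5%, 10.3% and 35.3% of those barcodes. In the control library CD8 T cells were 0.836% of passing barcodes and granzyme-rich cells 0.0492%.

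**Figure D1:**
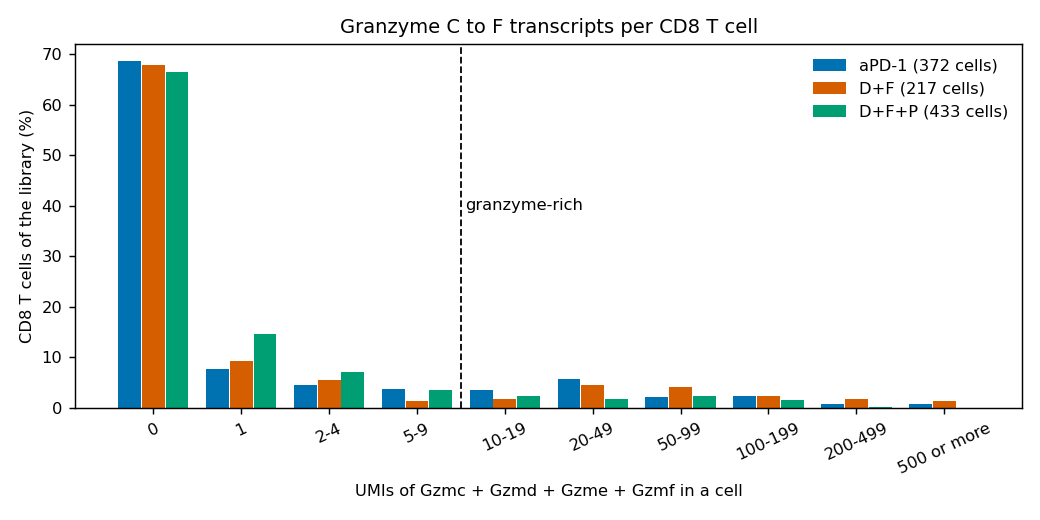
Share of CD8 T cells (vertical axis, percent) by the summed UMIs of Gzmc, Gzmd, Gzme and Gzmf per cell (horizontal axis, binned), for the treated libraries, with the threshold of 10 UMIs. Between 66.5% and 68.5% of CD8 T cells had none of these UMIs, and the cells past the threshold reached 1190 UMIs in aPD-1.

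The distribution of granzyme UMIs per CD8 T cell had its bulk at 0 and a long upper tail. No such UMI was found in 68.5% of CD8 T cells of aPD-1, 67.7% of D+F and 66.5% of D+F+P. Counts of 5 to 9 were held by 3.76%, 1.38% and 3.46% of them. The median granzyme-rich cell had 37, 61 and 49 UMIs of the 4 genes, with maxima of 1190, 832 and 310. Around the threshold, 11 cells had 10 to 12 UMIs and 15 had 7 to 9. The former had a median of 9794 UMIs in all and 25 of Gzmb, and the latter 8220 and 19. Free RNA was low by comparison: among melanoma barcodes, which should lack these genes, 1.24%, 1.61% and 9.60% had a granzyme UMI at median depths of 19412, 17046.5 and 29244 UMIs. Only 1 such barcode in D+F and 2 in D+F+P reached 10 of them.

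Granzyme-rich cells were deeper than other CD8 T cells, as a threshold on a count of UMIs favours. Their median total was 9794, 11430 and 16424 UMIs, against 6246, 4634 and 7814. Reduced to 1000 UMIs, they showed a median of 554, 559 and 552 genes against 557, 559.5 and 558. Mitochondrial shares were 1.61%, 1.46% and 1.63% against 1.81%, 1.70% and 1.80%.

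The 4 genes that defined the cells were not used in 1 fixed proportion. Each UMI stands for the 5′ end of 1 transcript, so levels of different genes are compared here without division by length. Gzmf led in aPD-1 with 44.3% of the 4-gene total, ahead of Gzmc with 31.1%, Gzmd with 12.3% and Gzme with 12.2%. In D+F the order was Gzmc (38.2%), Gzmf (23.5%), Gzmd (20.95%) and Gzme (17.4%). Without the barcode rich in NK transcripts, Gzmc, Gzmf, Gzme and Gzmd stood there at 37.1%, 28.3%, 18.4% and 16.2%. In D+F+P Gzmc (33.5%) and Gzmf (30.5%) lay close together, before Gzme (20.4%) and Gzmd (15.5%).

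**Figure D2:**
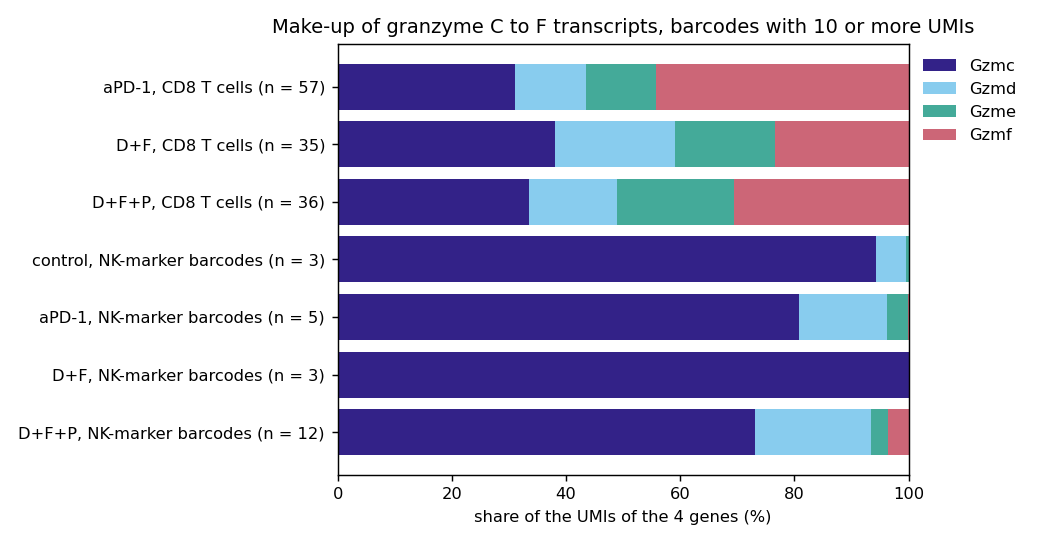
Make-up of the granzyme C to F transcripts (horizontal axis, percent of their UMIs, bars split by gene) in the granzyme-rich CD8 T cells of each treated library and in barcodes with an NK marker and few Cd3 UMIs, with the number of barcodes. Gzmf made up 44.3%, 23.5% and 30.5% in the T cells and at most 3.62% in the NK-marker barcodes.

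Most granzyme-rich cells carried several of the 4 genes. All 4 were detected in 26 of 57 cells of aPD-1, 19 of 35 of D+F and 12 of 36 of D+F+P, and exactly 1 in 4, 2 and 2 cells. Across granzyme-rich cells, each gene was taken as a share of the cell's UMIs. The shares of Gzmd and Gzme went together, with Spearman's rho of 0.85, 0.89 and 0.69, while Gzmc and Gzmf had rho of 0.48, 0.08 and 0.15. The cells were chosen by the sum of these 4 genes, which bears on such correlations. Cells of a library share its processing and differ in depth, and the transcripts of Gzmd and Gzme are 94.8% identical, so the split of reads between this pair is uncertain. Gzmc, at 74.0% to 74.5% identity with Gzmd, Gzme and Gzmf, is more distinct.

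Gzmg and Gzmn, of the same run, were outside the rule. Gzmg had 57 UMIs in 6 of 57 granzyme-rich cells of aPD-1, 80 in 10 of 35 of D+F and 0 in the 36 of D+F+P, and 0 in the other CD8 T cells of these 3 libraries. Against a floor of 3 counts over all other CD8 T cells, this was at least 189.9-fold higher. A single barcode held 41 of the 80 UMIs in D+F. Gzmg transcripts are 90.1% identical to those of Gzmd and 90.3% to those of Gzme, so this split too is uncertain. Gzmn had 0 UMIs in both classes of these libraries.

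NK cells offered a comparison outside the T cell gate. Barcodes with an NK marker and fewer than 2 Cd3 UMIs held at least 10 granzyme C to F UMIs in 3 of 23 (control), 5 of 28 (aPD-1), 3 of 18 (D+F) and 12 of 39 (D+F+P) cases. In them Gzmc made up 94.3%, 80.8%, 100% and 73.1% of the 4-gene total. Gzmf made up 0%, 0.0659%, 0% and 3.62% of it. Gzmf was therefore a larger share in the granzyme-rich T cells of every treated library than in the NK-marker barcodes of any library. This difference rests on 23 barcodes and was not tested. The control library did not share it: its 1 granzyme-rich T cell had 96.4% Gzmc and 3.57% Gzmf. Its 16 other CD8 T cells held 8 UMIs of Gzmc and 0 of Gzmf.

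The granzyme-rich cells were next set against the other CD8 T cells of the same library. UMIs were summed for each class in each of the 3 treated libraries, and edgeR's quasi-likelihood test with Benjamini-Hochberg adjustment was run with the library as a block, after Gzmc, Gzmd, Gzme and Gzmf had been taken out. The 3 libraries are the replicates of this contrast, and they had different treatments. With 2 residual degrees of freedom, its p-values rest largely on a spread that edgeR estimates by sharing information over genes. The ± values below are standard errors implied by the fit, the absolute log2 fold change over the square root of the F statistic. They are not the spread of a gene's own 3 library ratios, which can be wider. Of 6341 genes tested, 289 were higher in granzyme-rich cells (4.56%) and 298 lower (4.70%) at an adjusted p under 0.05, 9.26% in either direction. For 7.13% of genes tested the 3 granzyme-rich values lay above all 3 others, and for 11.8% below them. The median log2 fold change over all genes tested was -0.0027. Among barcodes of at least 6000 UMIs, with fewer cells and 5608 genes tested, 139 genes were higher and 86 lower. Without scaling beyond library size, 192 were higher and 351 lower. The filter on low counts keeps a gene that reaches its bound (11.7 CPM) in 3 of the 6 sums. Of the named genes, 14 reached it in no library of the other class, among them Tcf7, Bcl2, Cxcr3, Rtp4, H2-Aa, Ctsl, Il7r, Npnt, Upp1, Podnl1 and Gipc2. Such a gene had to differ to pass, so its call in this fit lends no support, and no p is given for it below. The counts of gene lists below include such genes, which are named where they occur. In the fit with no filter, where this does not apply, all 14 were called by edgeR. That fit uses the same sums, and the named genes include some picked for their calls, so it is not an independent check.

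**Figure D3:**
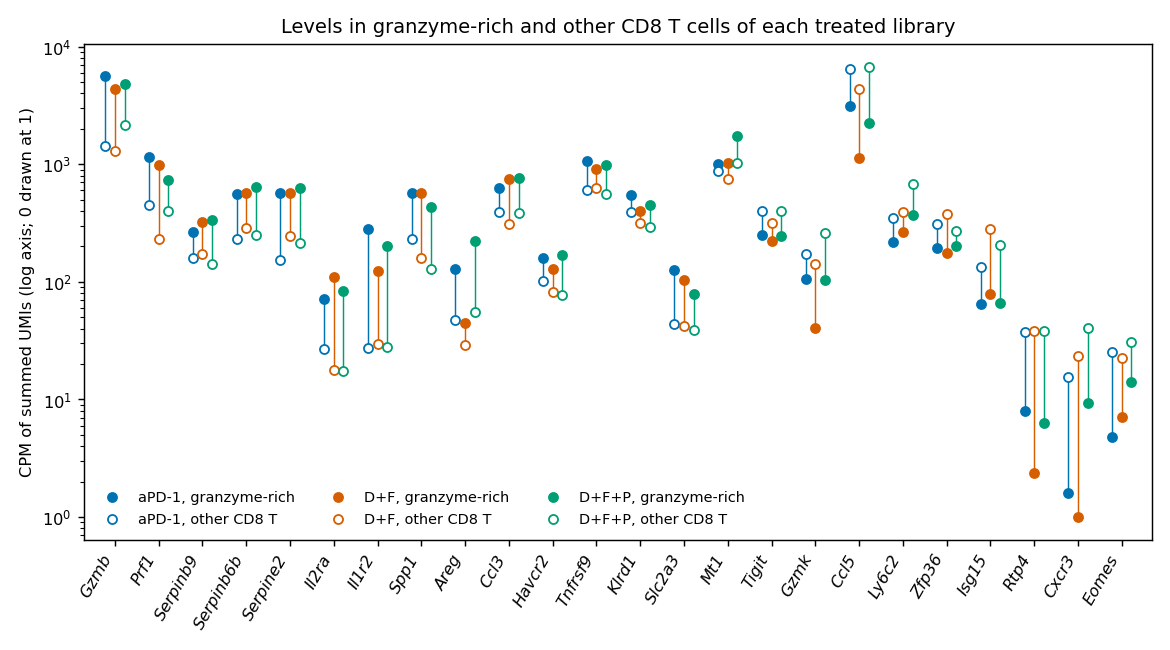
Levels (CPM, log axis, 0 drawn at 1) of named genes in granzyme-rich (filled) and other CD8 T cells (open), 1 point for each treated library and class. For Serpinb6b, Il1r2 and Tnfrsf9 the 3 filled points lie above the 3 open ones, and for Tigit and Isg15 below them.

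Among the effector proteins of the granule, Gzmb stood at 5659, 4378 and 4786 CPM in granzyme-rich cells, against 1436, 1300 and 2167 CPM in other CD8 T cells. The groups did not overlap, but the log2 fold change of 1.67 ± 0.24 (SE implied by the fit, n = 3 libraries) did not pass edgeR's quasi-likelihood test (adjusted p 0.10). Prf1, which encodes perforin, was at 1159, 977 and 730 CPM against 453, 232 and 400 CPM, again without overlap and short of the edgeR threshold (log2 fold change 1.43 ± 0.31, adjusted p 0.18). Gzmb and Prf1 passed under some of the alternatives, among them DESeq2 and reduction to 1000 UMIs.

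Of 13 cytotoxic effector genes tested, 3 were called higher (Nkg7, Cst7, Klrd1) and 1 lower (Gzmk), with a median log2 fold change of 0.16. Gzmk, the granzyme of effector memory-like cells, fell: it stood at 107, 40.3 and 103 CPM against 173, 143 and 263 CPM (log2 fold change -1.12 ± 0.14, edgeR adjusted p 1.4e-10). Its granzyme-rich values lay below all 3 of the others. Gzma was at 28.7, 126 and 15.7 CPM against 82.2, 96.7 and 195 CPM, and 48 of its 53 UMIs in D+F came from the barcode rich in NK transcripts. Cst7, which encodes the protease inhibitor cystatin F of cytotoxic granules, rose (497, 398 and 418 CPM against 329, 261 and 288 CPM).

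Serpins, which trap serine proteases, were mostly higher. Of 7 tested, 5 were called higher and none lower, and the median log2 fold change was 1.03. Serpinb9, the inhibitor of granzyme B, was at 265, 325 and 334 CPM in granzyme-rich cells and at 158, 172 and 142 CPM in the others (log2 fold change 1.03 ± 0.10, edgeR adjusted p 3.6e-16). Serpinb6b was at 558, 564 and 644 CPM against 229, 288 and 248 CPM (1.28 ± 0.09, edgeR adjusted p 1.8e-28). Its relative Serpinb6a rose by 0.96 ± 0.11. In each of these genes the 3 granzyme-rich values were above all 3 others.

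Serpinb9b, another relative of Serpinb9, was at 145, 87.8 and 45.5 CPM against 8.27, 17.7 and 13.02 CPM (2.83 ± 0.46, edgeR adjusted p 0.018). It was detected in only 26.3%, 11.4% and 13.9% of granzyme-rich cells, and 1 barcode gave 40.5% of its UMIs in D+F. Serpine2, protease nexin 1, was at 566, 564 and 633 CPM against 152, 246 and 212 CPM (1.62 ± 0.09, edgeR adjusted p 6.9e-26). The serpin count was 5 of 7 in each fit without 1 library, and 4 of 7 at 6000 UMIs or more.

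**Figure D4:**
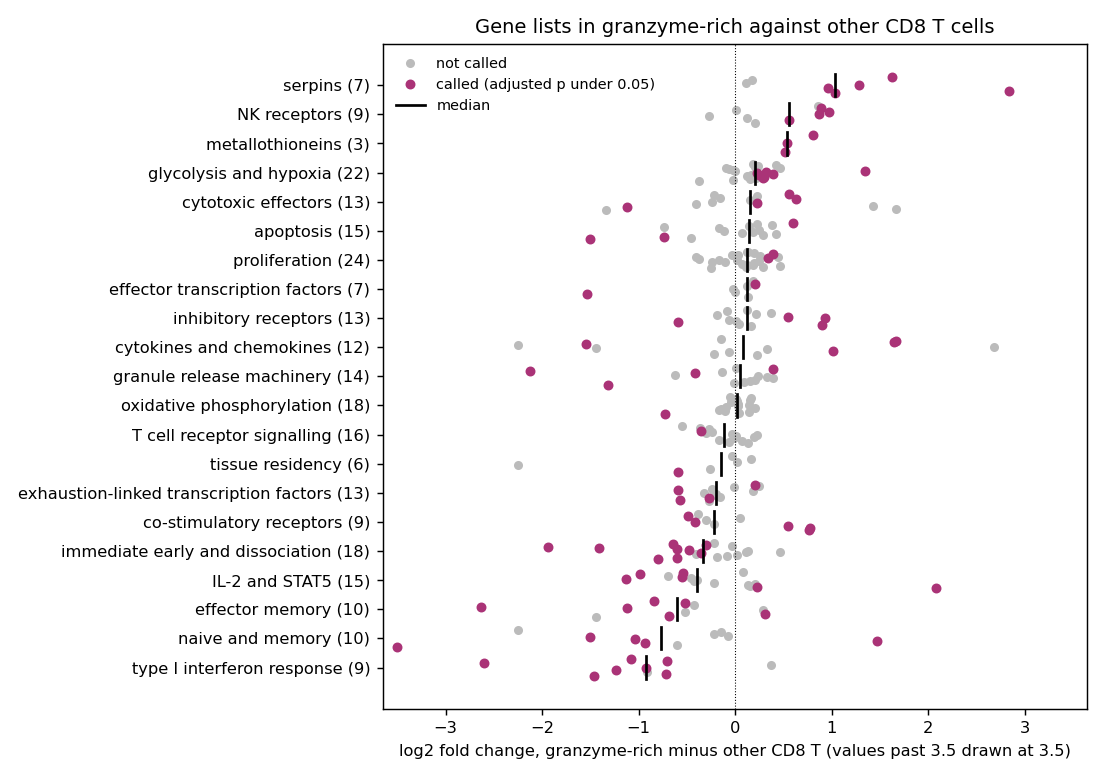
Log2 fold changes of the tested genes of each list (points, number tested in brackets), granzyme-rich minus other CD8 T cells, with called genes in colour and the list's median as a bar. Serpins had 5 of 7 genes called higher and the type I interferon response 7 of 9 called lower. Rtp4, among the latter, had to differ to pass the filter on low counts.

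Several genes with large positive fold changes were in none of the gene lists. Il1r2, the decoy receptor for interleukin 1, was at 282, 123 and 201 CPM against 27.6, 29.8 and 28.2 CPM (log2 fold change 2.94 ± 0.16, edgeR adjusted p 1.4e-30). It was detected in 61.4%, 45.7% and 55.6% of granzyme-rich cells and in 10.8%, 12.6% and 13.3% of the others. Npnt, which encodes the matrix protein nephronectin, was low in both classes, at 22.3, 33.2 and 37.6 CPM against 4.59, 5.58 and 2.66 CPM (3.04 ± 0.38). Upp1, uridine phosphorylase 1, was at 28.7, 49.8 and 28.2 CPM against 4.59, 5.58 and 3.72 CPM (2.92 ± 0.35). Further genes of this group were Nebl (2.21 ± 0.28), Ccdc184 (2.07 ± 0.20), Podnl1 (1.98 ± 0.42), Fam20a (1.85 ± 0.28), Osr2 (1.82 ± 0.30) and Gipc2 (1.76 ± 0.34).

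Receptors for cytokines and for co-stimulation moved in both directions. Il2ra, the high-affinity chain of the interleukin 2 receptor, was at 71.7, 109 and 83.1 CPM in granzyme-rich cells against 26.6, 17.7 and 17.5 CPM (2.08 ± 0.20, edgeR adjusted p 5.5e-16). Of 15 genes of interleukin 2 and STAT5 signalling, 2 were called higher (Il2ra, Il2rb) and 4 lower (Socs3, Pim1, Myc, Ccnd2), with a median of -0.39. Il2rb had the smaller change of the pair, at 0.22 ± 0.07, and turned to -0.05 when cells were reduced to 1000 UMIs. Of 9 co-stimulatory receptors, 3 were called higher and 2 lower. Tnfrsf9, which encodes 4-1BB, was at 1062, 908 and 978 CPM against 609, 634 and 564 CPM (0.77 ± 0.07, edgeR adjusted p 1.2e-18). Tnfrsf4 (OX40) rose by 0.77 ± 0.09 and Tnfrsf18 (GITR) by 0.54 ± 0.10, while Icos (-0.41 ± 0.14) and Tnfrsf1b (-0.49 ± 0.15) fell. Of 17 alternatives, Icos lost its call in 12 and Tnfrsf1b in 9, against 3 for Tnfrsf18 and 1 for Tnfrsf4.

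Inhibitory receptors gave calls in both directions: of 13 tested, 3 were called higher (Havcr2, Cd244, Entpd1) and 1 lower (Tigit), with a median of 0.12. Of 16 alternatives, Entpd1 lost its call in 11 and Cd244 in 7. Havcr2, which encodes TIM-3, was at 159, 128 and 171 CPM against 102, 81.8 and 76.8 CPM (0.90 ± 0.13, edgeR adjusted p 2.7e-08). Tigit was at 252, 223 and 244 CPM against 402, 319 and 402 CPM (-0.60 ± 0.10, edgeR adjusted p 4.1e-07). The 2 receptors thus stood on opposite sides without overlap. Tigit kept its call in all 17 alternatives. Havcr2 lost its call after reduction to 1000 UMIs, and its lowest log2 fold change over the alternatives was 0.07. Pdcd1, which encodes the antibody's target PD-1, was at 639, 626 and 511 CPM against 595, 559 and 487 CPM and was not called (0.16 ± 0.08, edgeR adjusted p 0.20). Lag3 (0.04 ± 0.09) and Ctla4 (0.01 ± 0.09) were not called either.

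Of 9 NK receptor genes tested, 4 were called higher (Klrd1, Klre1, Klri2, Fcer1g) and none lower, with a median of 0.56. The count was 0 of 9 without the library block, 0 of 5 after reduction to 1000 UMIs, 1 of 6 without cells cycling at 0.3% and 2 of the 7 with an adjusted p from DESeq2. Klrd1, the CD94 chain that pairs with NKG2 receptors, was at 552, 401 and 451 CPM against 391, 317 and 291 CPM (0.56 ± 0.09, edgeR adjusted p 1.4e-07). The classes did not overlap for Klrd1. Fcer1g is less certain, since 1 barcode gave 64.0% of its UMIs in D+F. Tyrobp, which encodes an adaptor of NK receptors, was not called (edgeR adjusted p 0.86), and its UMIs in D+F came almost entirely from the barcode described above.

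Among 12 cytokines and chemokines, 3 were called higher and 1 lower, with a median of 0.08. Spp1, which encodes osteopontin, was at 566, 572 and 431 CPM against 231, 161 and 128 CPM (1.65 ± 0.09, edgeR adjusted p 1.3e-32), with 56.9% of its D+F UMIs in 1 barcode. Ccl3 was at 634, 750 and 768 CPM against 392, 312 and 386 CPM (1.02 ± 0.08, edgeR adjusted p 1.5e-20), with 45.6% of its UMIs in D+F and 35.5% in D+F+P in 1 barcode each. Areg, which encodes the epidermal growth factor receptor ligand amphiregulin, was at 129, 45.1 and 221 CPM against 47.8, 28.8 and 55.8 CPM (1.67 ± 0.16, edgeR adjusted p 3.6e-16). Its classes overlapped, and single barcodes gave 42.1% to 53.1% of its UMIs in each library. Ccl5 was at 3134, 1138 and 2233 CPM against 6415, 4335 and 6783 CPM, without overlap and not called (-1.44 ± 0.25, edgeR adjusted p 0.13). Ifng was not called (0.23 ± 0.10, edgeR adjusted p 0.14).

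Genes of naive and memory T cells were mostly at the low side. Of 10 tested, 4 were called lower (Tcf7, Ccr7, Foxp1, Bcl2) and 1 higher (Il7r), with a median of -0.77. Tcf7, Bcl2 and Il7r had to differ to pass the filter on low counts, so their calls lend no support to these counts. Tcf7, the transcription factor TCF-1 of stem-like and memory T cells, had 0 UMIs in the 128 granzyme-rich cells and 87 UMIs (11.95, 14.88 and 11.96 CPM) in the others. It was at least 6.97-fold lower against a floor of 3 counts over the granzyme-rich cells. Id3 had 0 UMIs against 58 and Slamf6 had 1 against 81, and both were too low to be tested. Il7r, the interleukin 7 receptor of memory cells, went the other way, at 12.8, 21.4 and 23.5 CPM against 6.89, 8.37 and 6.64 CPM (1.47 ± 0.38). The count of lower genes in this list was 0 of 6 among barcodes of at least 6000 UMIs, and 0 of the 6 to which DESeq2 gave an adjusted p.

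Of 10 effector memory genes, 5 were called lower and 1 higher (Ly6a), with a median of -0.60. The 5 include Cxcr3, which had to differ to pass the filter on low counts. Cxcr3, a chemokine receptor of effector and memory T cells, was at 1.59, 0 and 9.40 CPM against 15.6, 23.2 and 40.4 CPM (-2.64 ± 0.45). Ly6c2 was at 217, 263 and 373 CPM against 347, 392 and 685 CPM (-0.68 ± 0.09, edgeR adjusted p 1.0e-09). The classes did not overlap for Cxcr3 and did for Ly6c2. Cd7, an early T cell surface protein, had the largest negative fold change of the named genes after Tcf7: 6.38, 0 and 28.2 CPM against 118, 118 and 211 CPM (-3.51 ± 0.25, edgeR adjusted p 3.6e-16).

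Transcription factors gave calls in both directions. Of 13 linked with exhaustion, 1 was called higher (Id2) and 3 lower (Nr4a1, Nr4a2, Ikzf2), with a median of -0.20, and Tox was not called (-0.27 ± 0.13, edgeR adjusted p 0.20). Nr4a2 lost its call in 11 of 17 alternatives, Ikzf2 in 9 and Nr4a1 in 4. Of 7 effector factors, Id2 was called higher and Eomes lower. Eomes, which drives memory and effector programmes, was at 4.78, 7.12 and 14.1 CPM against 25.3, 22.3 and 31.1 CPM (-1.53 ± 0.37, edgeR adjusted p 0.0015). Id2 changed by 0.21 ± 0.07 and turned to -0.14 when cells were reduced to 1000 UMIs. Tbx21 (0.14 ± 0.17) and Prdm1 (0.19 ± 0.32) were not called.

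Genes of the type I interferon response were lower. Of 9 tested, 7 were called lower, among them Isg15, Irf7, Rtp4 and Zbp1, and none higher, with a median of -0.92. Rtp4 had to differ to pass the filter on low counts, so its call lends no support to this count. Isg15, a ubiquitin-like protein induced by interferon, was at 65.4, 78.3 and 65.8 CPM against 133, 283 and 204 CPM (-1.46 ± 0.14, edgeR adjusted p 3.6e-16). Rtp4, another interferon-induced gene, was at 7.97, 2.37 and 6.27 CPM against 37.2, 38.1 and 38.3 CPM (-2.61 ± 0.37). The counts lower were 7 of 9 without the barcodes highest in melanoma and myeloid markers, 6 of 7 at 6000 UMIs or more, and 5 of the 7 with an adjusted p from DESeq2.

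Several genes with large negative fold changes belong to other cell types. H2-Aa, of MHC class II, was at 6.38, 4.74 and 4.70 CPM against 70.3, 27.9 and 31.6 CPM, and the pigment gene Tyrp1 at 17.5, 47.4 and 15.7 CPM against 143, 164 and 46.0 CPM. Their log2 fold changes were -2.99 ± 0.36 and -2.12 ± 0.21. Without barcodes high in melanoma and myeloid markers they were -1.86 and -1.21. Cxcl10, an interferon-induced chemokine, was at 19.1, 14.2 and 6.27 CPM against 132, 79.0 and 56.9 CPM (-2.73 ± 0.25, edgeR adjusted p 1.5e-18), and -1.82 without those barcodes. The summed markers of both cell types differed between the classes, as given above, and the remaining part of their RNA in these differences was not tested.

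Sugar metabolism genes had calls in 1 direction. Of 22 genes of glycolysis and hypoxia tested, 7 were called higher (Aldoa, Tpi1, Pgk1, Eno1, Pkm, Ldha, Slc2a3) and none lower, with a median of 0.21. The count was 4 of 21 at 6000 UMIs or more, 4 of the 20 with an adjusted p from DESeq2, 1 of 13 after reduction to 1000 UMIs, 4 of 20 without cells cycling at 0.3% and 1 of 22 without the library block. Slc2a3, the glucose transporter GLUT3, was at 126, 104 and 78.4 CPM against 43.6, 41.9 and 38.8 CPM (1.34 ± 0.17, edgeR adjusted p 4.8e-11). Eno1, an enzyme of glycolysis, was at 843, 697 and 676 CPM against 624, 574 and 554 CPM (0.39 ± 0.07, edgeR adjusted p 2.0e-05). Neither gene overlapped between the classes. Of 18 genes of oxidative phosphorylation, 1 was called lower (Ndufa4) and none higher, with a median of 0.02. The 3 metallothioneins Mt1 (0.52 ± 0.07), Mt2 (0.54 ± 0.12) and Mt3 (0.80 ± 0.19) were called higher, with overlap between the classes. Mt1 lost its call in 3 of 17 alternatives, Mt2 in 5 of 17 and Mt3 in 4 of 16. For Mt1 these included barcodes of at least 6000 UMIs and the fit without the most granzyme-rich barcode of each library. Single barcodes gave 27.9% of Mt1 UMIs in D+F and 21.2% in D+F+P.

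Immediate early and dissociation genes, which also move with tissue handling, were called lower in 9 of 18 cases and higher in none, with a median of -0.33. Fos was at 51.0, 75.9 and 78.4 CPM against 136, 112 and 117 CPM (-0.80 ± 0.16, edgeR adjusted p 5.0e-05). This count was 2 of 17 among barcodes of at least 6000 UMIs and 1 of the 17 with an adjusted p from DESeq2. Of 16 genes of T cell receptor signalling, 1 was called lower (Cd2). Of 14 genes of granule release, 1 was called higher (Ctsd) and 3 lower (Lamp1, Sh2d1a, Ctsl). Ctsl had to differ to pass the filter on low counts, and Sh2d1a lost its call in 12 of 17 alternatives. Of 15 apoptosis genes, Casp8 was called higher and Bcl2 and Bcl2l11 lower. Bcl2 had to differ to pass the filter, and Casp8 lost its call in 12 of 16 alternatives. Of 6 tissue residency genes, Cd69 was called lower.

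Cell cycle genes gave few calls. A cell counted as cycling when 25 proliferation genes made up at least 0.1% of its UMIs. This was so for 71.9% (58.5% to 83.0%) of granzyme-rich cells in aPD-1, 88.6% (73.3% to 96.8%) in D+F and 75.0% (57.8% to 87.9%) in D+F+P. In the other CD8 T cells the shares were 62.5%, 62.1% and 57.4%. After reduction to 1000 UMIs they were 77.2%, 82.9% and 83.3% in granzyme-rich cells, with 72.4%, 72.5% and 67.5% in the others. At that depth a single UMI of the 25 genes meets the 0.1% cut, so these shares follow a looser criterion. Of 24 proliferation genes tested, Ube2c and Mcm3 were called higher and none lower, with a median of 0.13. Ube2c lost its call in 11 of 17 alternatives and Mcm3 in 13 of 17. Mki67 was not called (-0.25 ± 0.14, edgeR adjusted p 0.36). Free RNA of dividing tumour cells may add to such shares, and its part was not measured or tested.

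Receptor V genes were read from the gene counts, giving each cell the Trbv and Trav gene with most UMIs, which is not a clonotype. Both were assigned in 46 granzyme-rich cells of aPD-1, 18 of D+F and 27 of D+F+P. Of these, 93.5%, 88.9% and 88.9% had a pair that was also seen among the other CD8 T cells of the library. In aPD-1 the pair Trbv12-1 with Trav19 was held by 15 of 46 granzyme-rich cells (32.6%) and 59 of 190 others (31.1%). The pair Trbv29 with Trav6-7-dv9 was held by 11 (23.9%, 12.6% to 38.8%) and 11 (5.79%, 2.93% to 10.1%), so that 11 of its 22 cells were granzyme-rich. In D+F+P the pair Trbv13-2 with Trav12-1 was held by 11 of 27 granzyme-rich cells (40.7%, 22.4% to 61.2%) and 36 of 234 others (15.4%, 11.01% to 20.7%). In D+F the most frequent pair, Trbv12-1 with Trav14-2, was at 27.8% and 23.6%. Granzyme-rich cells thus spread over several receptors in each library. These pairs were picked for their frequency, and cells of 1 receptor may descend from 1 cell.

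**Figure D5:**
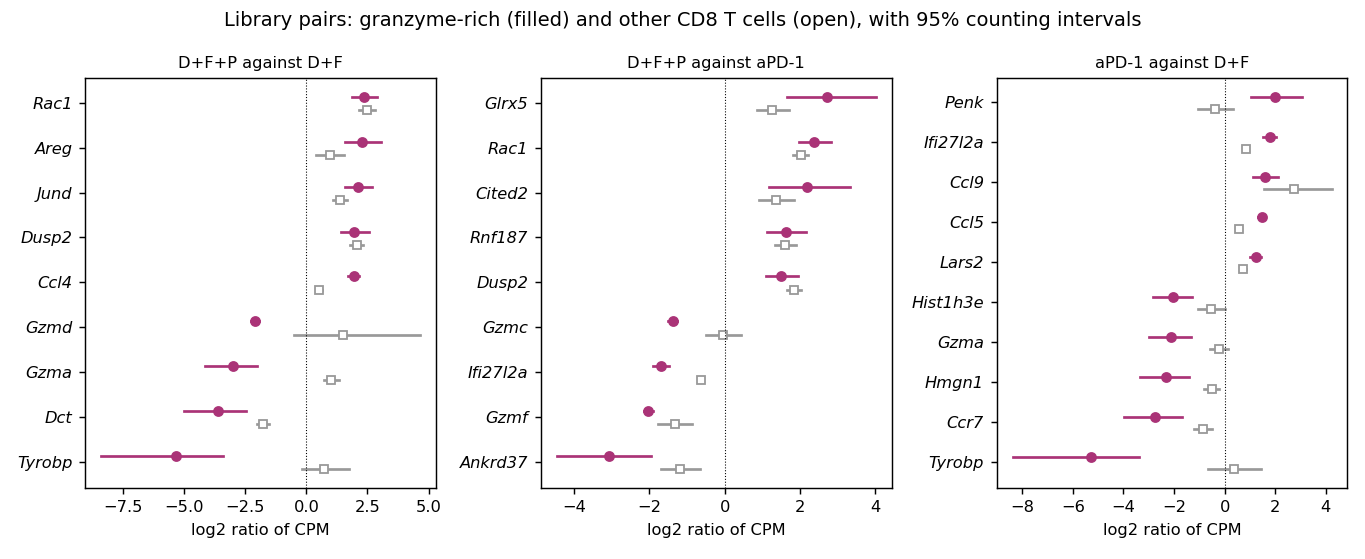
Log2 ratios of CPM between treated libraries (horizontal axis) for the genes with the highest and lowest ratios in granzyme-rich cells, with filled points for these cells, open ones for other CD8 T cells and lines for 95% intervals of counting error; Gzmg, at 0 in D+F+P, is not drawn. Rac1 lies at 2.35 and 2.38 in granzyme-rich cells, with 2.46 and 2.01 in the others.

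Last, the granzyme-rich cells of the treated libraries were compared with each other, as ratios of CPM without a test. The 3 pairs share libraries and are not independent. Between D+F+P and D+F, 669 of 4785 genes were at least 1.5-fold higher in the former (14.0%) and 565 lower (11.8%). In D+F+P against aPD-1 it was 696 (13.2%) and 536 (10.2%) of 5271, and in aPD-1 against D+F 580 (12.3%) and 557 (11.8%) of 4716.

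The granzymes of the rule were lowest in D+F+P. Gzmc was at 3125, 4376 and 1199 CPM. Gzmd was at 1237, 2403 and 556 CPM, Gzme at 1226, 1999 and 732 CPM, and Gzmf at 4444, 2690 and 1094 CPM. The sum of the 4 was 10032, 11468 and 3581 CPM, with D+F+P below both others. Without the barcode rich in NK transcripts, D+F stood at 1607 CPM of Gzmd and 9911 CPM of the 4 together, the latter below aPD-1. A threshold on UMIs admits lower levels in deeper cells, D+F+P had the deepest cells, and the part of depth in this order was not tested. Gzmb differed less between libraries, with log2 ratios of 0.13 (0.04 to 0.21) for D+F+P against D+F, -0.24 (-0.31 to -0.17) for D+F+P against aPD-1 and 0.37 (0.29 to 0.45) for aPD-1 against D+F. Gzmg, absent in D+F+P, was at least 40.4-fold lower there than in D+F and at least 19.3-fold lower than in aPD-1, at a floor of 3 counts, with 51.2% of the D+F UMIs in 1 barcode.

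Some ratios were of like size in the other CD8 T cells. Rac1, which encodes a small GTPase of the actin cytoskeleton, was at 472 CPM in granzyme-rich cells of D+F+P against 92.5 CPM in D+F (log2 ratio 2.35, 1.87 to 2.87) and 90.9 CPM in aPD-1 (2.38, 1.96 to 2.81). In the other CD8 T cells the ratios were 2.46 and 2.01. Dusp2, a phosphatase of the MAP kinase pathway, had 1.96 and 1.51 in granzyme-rich cells and 2.05 and 1.84 in the others. Rnf187 had 1.63 and 1.61 for D+F+P against aPD-1 in the 2 classes.

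Others differed between the classes. Ccl4 was at 1664 CPM in D+F+P and 436 CPM in D+F (1.93, 1.70 to 2.16), with a ratio of 0.51 in the other CD8 T cells, and 1 barcode gave 28.5% of its D+F+P UMIs. Ankrd37, a gene induced by low oxygen, was at 10.97 CPM in D+F+P and 92.5 CPM in aPD-1 (-3.08, -4.45 to -1.94), with -1.17 in the others. Ifi27l2a, an interferon-induced gene, was at 1315 CPM in aPD-1, 384 CPM in D+F and 409 CPM in D+F+P. Its log2 ratio of aPD-1 to D+F was 1.78 (1.53 to 2.03), with 0.84 in the others. Penk, which encodes proenkephalin, was at 104 CPM in aPD-1 and 26.1 CPM in D+F (1.99, 1.06 to 3.06), with -0.37 in the others. Whether these ratios differ between the classes was not tested.

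Single barcodes carried other ratios. In D+F, 98.1% of Tyrobp, 90.6% of Gzma, 82.5% of Dct, 78.2% of Hist1h3e and 61.0% of Ccr7 UMIs of granzyme-rich cells came from 1 barcode each. The log2 ratios of D+F+P to D+F for Tyrobp, Dct and Gzma (-5.33, -3.62 and -3.00) and those of aPD-1 to D+F for Tyrobp, Ccr7, Gzma and Hist1h3e (-5.30, -2.76, -2.13 and -2.03) rest on these barcodes.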

How the data were processed

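Whole tumours were dissociated, red cells lysed and debris and dead cells removed, per the labels' protocols. Per the submitters' processing notes, Cell Ranger 3.1.0 was used with GRCm38 (mm10); the annotation release is not given in the sources used here. The deposited matrices hold raw UMI counts per gene and barcode, with no normalization by the authors, per the file headers. Totals were 34444856 UMIs for control, 27216211 for aPD-1, 31937128 for D+F, and 22691663 for D+F+P. Kept barcodes had at least 300 genes, 1000 UMIs and 10% ribosomal protein UMIs, and at most 20% mitochondrial UMIs. Of barcodes that otherwise met the CD8 T cell rule, the ribosomal filter removed 9 from aPD-1, 5 from D+F and 66 from D+F+P. Among them were 2 granzyme-rich cells, both from D+F+P. The effect of this filter on the shares of CD8 T cells was not tested. Library pairs shared a few barcodes by sequence, and no granzyme-rich cell was shared. The receptor contigs were not analysed here.

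Counts were summed per library and class and tested with edgeR 4.0.16 in R 4.3.3 (quasi-likelihood, TMM, filterByExpr, library as block, 2 residual degrees of freedom). Shares carry exact Clopper-Pearson intervals and ratios exact conditional binomial ones, from SciPy 1.17.1 in Python 3.11.15, at 95%. These cover counting error only. Gene positions are from GENCODE M21 and alignments from Biopython 1.88. Members, gene lists and tests were chosen with earlier results of these data known. Named genes were a fixed set, the 12 genes with the largest fold change in each direction among called genes with at least 50 UMIs, the 5 highest and lowest by interval bound in each library pair, and members of the lists. Alternatives varied the granzyme threshold, depth, marker-high barcodes, cycling cells, scaling, the count filter, the block, the tool (DESeq2 1.42.0) and each library. 1 named gene is not reported here.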

Additional observations from a re-analysis of the deposited data

Results flagged for a closer look

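In 5 cases a gene's ratio of granzyme-rich to other CD8 T cells went in opposite directions in different libraries, each beyond its own counting interval, and the difference itself was not tested. For Ccl4 the log2 ratio was 0.995 in D+F+P and -0.43 in D+F. For Cd3g it was 0.26 in aPD-1 and -0.19 in D+F, and for Cd8a 0.16 in aPD-1 and -0.34 in D+F. Cd3g and Cd8a served to choose the CD8 T cells, and a minimum of UMIs asks for a larger share in shallow cells. Their ratios are therefore a description only. In D+F the median depth was 11430 UMIs in granzyme-rich and 4634 in other cells. For Tyrobp it was 3.49 in D+F, with -2.16 in aPD-1 and -2.55 in D+F+P, and 1 barcode held 52 of the 53 Tyrobp UMIs of granzyme-rich cells in D+F.

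Barcodes outside the CD8 T cell gate with at least 10 UMIs of granzymes C to F were 1.02% of barcodes in D+F+P (95% interval 0.680% to 1.47%), above the 0.198% of the control library (0.0642% to 0.461%). In aPD-1 they were 0.475% and in D+F 0.356%.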

How the results depend on the processing

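The shares of CD8 T cells moved past their intervals in few settings: 22.6% in D+F among barcodes of at least 3000 UMIs, 11.8% in D+F+P at 5 UMIs and 5.08% there at a granzyme share of 0.2%. Over all passing barcodes the shares were 0.0492% (control), 3.14%, 1.67% and 2.93%. The counts of higher and lower genes were 174 and 157 at a granzyme share of 0.2%, 34 and 64 after reduction to 1000 UMIs, 92 and 87 without cells cycling at 0.3%, 139 and 86 at 6000 UMIs or more, 73 and 52 with DESeq2, and 192 higher without scaling. Without the library block, which pairs the classes of a library, they were 54 and 44. Leaving out 1 library gave 159 to 223 higher and 157 to 278 lower. Of the calls, 130 of 289 higher and 79 of 298 lower were still made at 6000 UMIs, and 70 and 48 with DESeq2. The settings of 6000 UMIs, of 0.3% cycling and without the most granzyme-rich barcode of each library were chosen after seeing the data.

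Cycling shares at 0.3% were 40.4%, 51.4% and 33.3% in granzyme-rich and 30.8%, 33.5% and 27.2% in other cells, in the order used above. In the other cells they were 72.4%, 72.5% and 67.5% after reduction to 1000 UMIs, and 75.0% in D+F at 3000 UMIs or more. The counts of genes 1.5-fold higher and lower between libraries were 57 and 77 (D+F+P against D+F), 59 and 89 (D+F+P against aPD-1) and 73 and 84 (aPD-1 against D+F) after reduction, and 207 and 253, 190 and 213, and 229 and 268 without cycling cells. The setting without cycling cells leaves only 16, 4 and 9 granzyme-rich cells, so its counts carry little weight. For aPD-1 against D+F, scaling by the median ratio gave 754 and 466.

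Among values called, or past 1.5-fold between libraries, and for Tyrobp, signs changed in these cases: Id2 (-0.14) and Il2rb (-0.054) after reduction to 1000 UMIs, Tyrobp (-2.28, called, without the D+F library, and 1.78 without D+F+P), and, without cycling cells, the log2 ratios of D+F+P to D+F for Mt1 (-0.45) and to aPD-1 for Ccl4 (-0.24). The cause was not tested. Fold changes of 43 of the 91 named genes not called, and medians of 9 of 22 lists, also crossed 0 over the settings. The comparison of classes without cells cycling at 0.1% was not run, because it leaves 16, 4 and 9 granzyme-rich cells. The ratios between libraries without cycling cells, with those of Mt1 and Ccl4 above, rest on these same few cells. Of 87 named genes called, 21 were called in every alternative that tested them, 53 in each fit without 1 library, 39 with DESeq2 and 50 at 6000 UMIs or more. With 129 cells and 1 library per treatment, genes of few UMIs and differences between treatments are beyond the depth of these data.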
